A study of Mus musculus with 4 samples.

Results

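The genes described here encode 44 proteins of regulated secretion: 17 Rab GTPases, 12 SNAREs, and 15 docking, priming and granule biogenesis proteins. They were taken by name from a list, and all 44 were found among the 18193 named genes of the array. Each gene was read by its brightest probe set, by mean log2 intensity across the 4 arrays. The 44 genes had 114 probe sets in all, and 34 of them had 2 or more.

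Each of 4 samples of mouse bone marrow cells was measured on 1 Affymetrix array. All began as lineage-negative, Sca-1-positive, c-kit-positive (LSK) cells, the marrow fraction in which blood stem cells are enriched. The first sample was taken at day 3 after transduction with a β-catenin retrovirus. The next samples, named DKmix in the labels, came from a β-catenin-transduced LSK culture at day 50 and at day 300. The last sample had received a retrovirus for enhanced green fluorescent protein (eGFP) and was taken at day 3. All 4 were grown in medium with serum, SCF, IL-3, IL-11 and Flt3. Mouse strain, age, number of animals, vector promoter and clonality of the cultures are not stated in the labels. The series asked which genes act downstream of β-catenin, which carries Wnt signals to the genome, when blood stem cells become immortal. Each group had 1 array and so no replicate, which allows no test and no p-value. Every difference below compares 1 array with another.

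Rab proteins are small GTPases that mark a membrane compartment and, when bound to GTP, recruit the motors and tethers that move and dock it. SNARE proteins on a vesicle and on its target membrane then zip together and drive fusion, under the control of SM (Sec1/Munc18) proteins, Munc13 priming factors and calcium-sensing synaptotagmins. Mast cells, basophils, neutrophils and platelets use this machinery to release preformed granules. In mast cells granule release follows cross-linking of the IgE receptor and is known to need SNAP-23, syntaxin-4, VAMP-8 and Munc13-4, with Rab27 proteins placing the granules at the plasma membrane.

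Promoter windows were available for 36 of the 44 genes, from RefSeq on build GRCm38.p6. The windows spanned the 250 bases before and 50 bases after a start site. Shown here are the 250 bases before the start for Vamp8, Syt9 and Lyst, which separated the DKmix arrays from the day 3 arrays by at least 2-fold, for Rab5a, which was low on a single array, and for Rab27a, the paralogue of a gene whose window was not used here. The sequences run 5′ to 3′ on the gene's strand. Capitals mark any of 6 motifs searched on both strands: the E-box CACGTG, the E-box CATGTG that the mast cell factor MITF can bind, a pair of sites for erythroid and mast cell zinc finger factors, which are AGATAA and also TGATAA, the AP-1 site TGAGTCA, and the site CTTTGAT of the TCF/LEF partners of β-catenin. Where Rab27a had several windows, the one with a motif is shown.
Rab27a (chr9:73063898-73064147, + strand): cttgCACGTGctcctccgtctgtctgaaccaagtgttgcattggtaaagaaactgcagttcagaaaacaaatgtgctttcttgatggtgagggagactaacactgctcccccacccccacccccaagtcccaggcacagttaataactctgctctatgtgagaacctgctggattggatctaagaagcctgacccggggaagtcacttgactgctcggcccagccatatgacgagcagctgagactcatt
Rab5a (chr17:53478984-53479233, + strand): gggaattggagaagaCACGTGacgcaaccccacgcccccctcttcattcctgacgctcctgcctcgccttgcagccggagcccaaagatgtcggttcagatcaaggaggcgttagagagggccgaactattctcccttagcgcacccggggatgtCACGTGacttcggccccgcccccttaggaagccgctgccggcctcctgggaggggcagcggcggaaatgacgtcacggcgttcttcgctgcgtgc
Vamp8 (chr6:72390668-72390917, - strand): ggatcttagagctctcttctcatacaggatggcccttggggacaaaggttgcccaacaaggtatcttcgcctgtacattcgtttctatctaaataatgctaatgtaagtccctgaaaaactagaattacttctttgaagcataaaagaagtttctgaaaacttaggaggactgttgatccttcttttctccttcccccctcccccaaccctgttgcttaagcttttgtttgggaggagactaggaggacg
Syt9 (chr7:107370540-107370789, + strand): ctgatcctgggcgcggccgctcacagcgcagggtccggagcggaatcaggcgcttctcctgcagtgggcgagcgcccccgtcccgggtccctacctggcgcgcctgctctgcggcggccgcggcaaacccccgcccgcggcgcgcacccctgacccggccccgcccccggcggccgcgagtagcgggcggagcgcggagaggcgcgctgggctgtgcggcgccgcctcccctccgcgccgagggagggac
Lyst (chr13:13590159-13590408, + strand): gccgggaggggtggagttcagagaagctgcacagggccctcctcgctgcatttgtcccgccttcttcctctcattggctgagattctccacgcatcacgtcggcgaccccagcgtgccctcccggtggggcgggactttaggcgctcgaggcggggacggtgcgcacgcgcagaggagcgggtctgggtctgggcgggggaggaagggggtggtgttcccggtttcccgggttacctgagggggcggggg
Rab5a held CACGTG at 2 places and Rab27a at 1 place, and the windows of Vamp8, Syt9 and Lyst held none of the 6 motifs in these 250 bases. Over the full windows CACGTG occurred in 6 of 42 windows of the secretory genes, those of Rab27a, Rab5a, Stx6, Stxbp2, Hps1 and Hps3, and in 7.15% of all 32851 windows. CATGTG occurred in 2 of 42 (14.2% of all windows), AGATAA in 1 (11.2%), TGATAA in 3 (9.05%), TGAGTCA in 2 (5.2%) and CTTTGAT in 0 (3.73%). The median GC content was 61.2% in the windows of these genes and 52.7% in all windows. These matches describe letters in a window and do not show that a factor binds there.

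The values are linear MAS5 signal intensities as the authors deposited them, with a trimmed mean of 150 on every array. A floor of 48.3, the pooled median of the 4 arrays, replaced dimmer intensities. Where 1 side of a ratio lay at the floor, the fold is given as "at least". Where both sides did, the gene counts as not measured in that comparison. Of the 44 genes, 35 were above the floor on all 4 arrays, 9 on some of them and 0 on none. Genes are called higher or lower at a ratio of 2-fold or more. For Gapdh the 3′ to 5′ signal ratio, a measure of RNA integrity, was 1.18 at β-catenin day 3, 4.96 at DKmix day 50, 1.06 at DKmix day 300 and 4.14 at eGFP day 3, so the arrays of DKmix day 300 and β-catenin day 3 form the comparison with like ratios. Of 11 mast cell markers, 8, 10, 11 and 8 were above the floor in the same order of arrays, with summed intensities of 3897, 179712, 78823 and 756.2. Of 10 neutrophil markers 8, 3, 1 and 10 were above the floor, with sums of 13190.1, 715.9, 209.3 and 103009. Of 10 monocyte, macrophage and dendritic cell markers 10, 5, 3 and 8 were above it, with sums of 24382, 560.4, 429.3 and 33589. Of the LSK-defining genes, Kit gave 82.9, 3459.5, 1263 and 55.8 and Ly6a (Sca-1) was not analysed here, while Flt3, a progenitor receptor, was below the floor on all 4 arrays. The part of these markers and of RNA integrity in the results below was not tested, and in bulk RNA fewer cells of a type and less RNA per cell cannot be told apart.

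**Figure D1:**
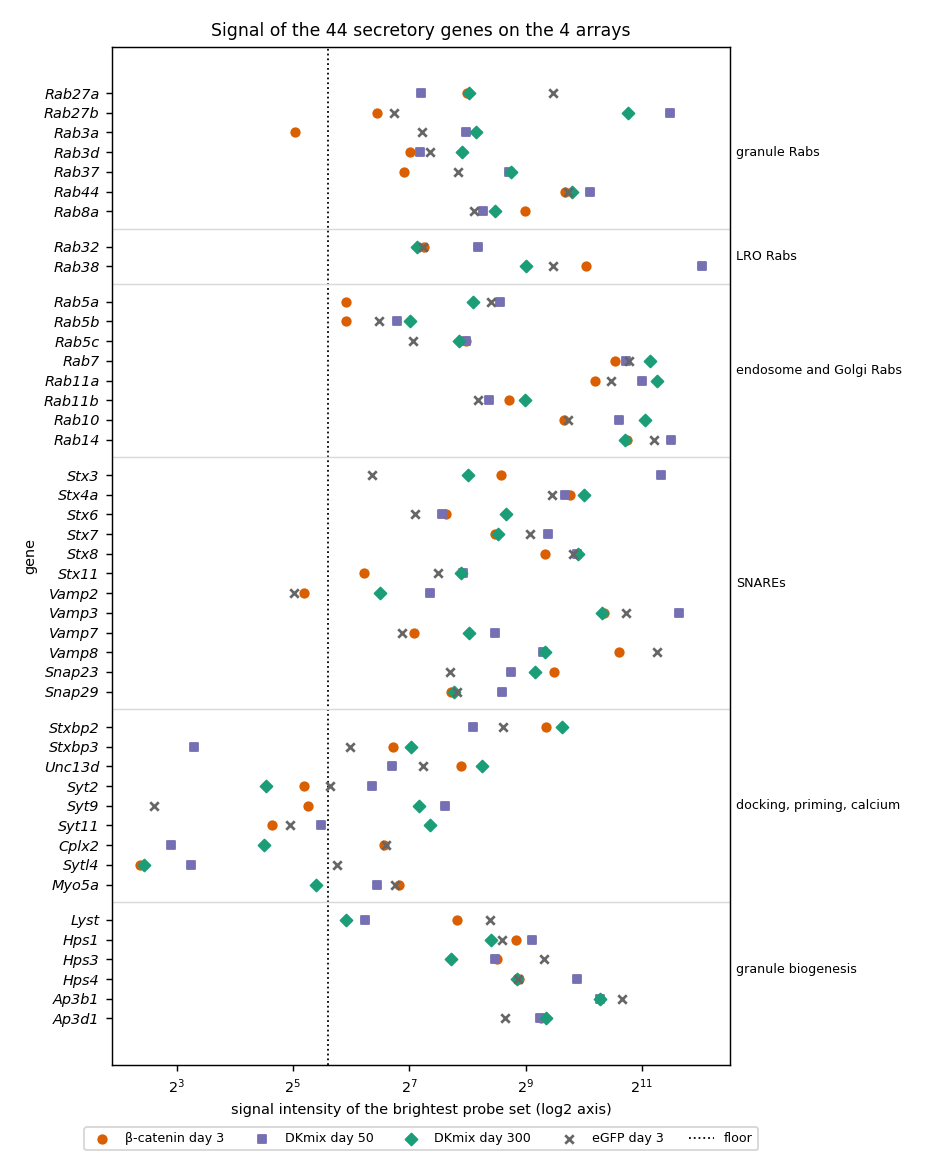
Signal intensity of the brightest probe set (log2 axis) for each of the 44 genes, grouped by role, on the arrays of β-catenin day 3, DKmix day 50, DKmix day 300 and eGFP day 3. Each symbol is 1 array and the dotted line is the floor of 48.3. Rab27b lies at 2846 and 1736 on the DKmix arrays and at 86.8 and 107.0 on the day 3 arrays. LRO, lysosome-related organelle.

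Against β-catenin day 3, DKmix day 50 had 12 of 42 measured genes higher and 5 lower, a share of 28.6% higher and 11.9% lower, where 16.0% of all measured genes were higher and 15.7% lower, 31.7% in either direction. DKmix day 300 had 11 of 42 higher (26.2%) and 4 lower (9.52%), where 14.0% of all genes were higher and 14.4% lower, 28.4% in either direction. Both comparisons share the β-catenin day 3 array. The median log2 ratio of the 44-gene list was 0.49 at day 50 and 0.18 at day 300, beside 0.07 and -0.08 for all genes. With the arrays scaled on the hybridisation controls, spiked-in RNAs, the median of all genes moved by -0.79 at day 50 and -0.82 at day 300, and the counts became 7 higher and 13 lower at day 50 and 4 higher and 18 lower at day 300. On that scale 4.92% of all genes were higher and 39.3% lower at day 50, and 4.17% were higher and 45.1% lower at day 300. Relative to all genes on that scale, the median of the list was 0.28 above at day 50 and 0.10 above at day 300. The Rab GTPases had a median of 0.81 at day 50 and 0.60 at day 300. On the hybridisation control scale these became -0.13 and -0.44, or 0.60 and 0.46 above the median of all genes. The day 300 median of the Rabs was 0.197 with quantile normalization and 0.265 with probe sets averaged. These lay 0.22 and 0.33 above the median of all genes in the same settings. The SNAREs had medians of 0.88 and 0.15. On the hybridisation control scale these became -0.06 and -0.90, or 0.67 above and level with the median of all genes. The docking and granule genes had medians of -0.04 and 0.01, which became -0.98 and -0.99 on that scale. Relative to the median of all genes on that scale these were -0.26 and -0.09. The day 50 median of the docking and granule genes was 0.03 with quantile normalization and -0.80 with probe sets averaged.

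**Figure D2:**
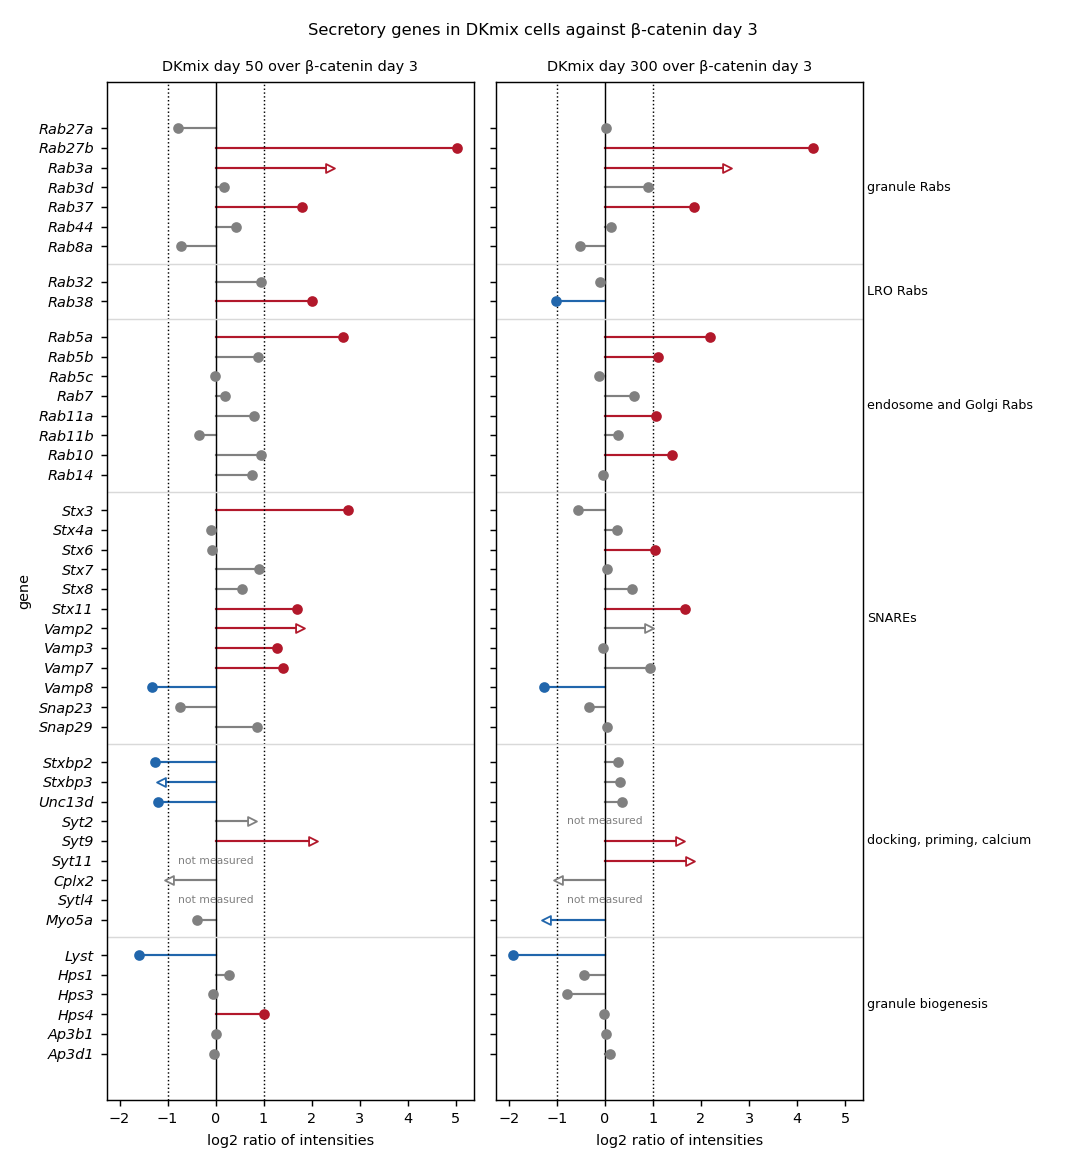
Log2 ratio of intensities, DKmix day 50 over β-catenin day 3 (left) and DKmix day 300 over β-catenin day 3 (right), for each of the 44 genes. Filled circles are measured ratios, open triangles are lower bounds on the size, dotted lines mark 2-fold, red is higher and blue is lower. Rab27b has the ratio farthest from 0 in both panels, at 5.04 and 4.32.

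Among the Rab GTPases of granules and secretion, Rab27b had the largest ratios of the whole list. Rab27b, which tethers secretory granules at the cell surface in mast cells and platelets, gave 86.8 on β-catenin day 3, 2846 on DKmix day 50, 1736 on DKmix day 300 and 107.0 on eGFP day 3. It was 32.8-fold higher at day 50 and 20.0-fold higher at day 300 than on β-catenin day 3, and its lower DKmix value was 16.2-fold above its higher day 3 value. The 3 other Rab27b probe sets were brighter on both DKmix arrays than at β-catenin day 3 as well, with 579.3 and 301.6 on the DKmix arrays against 85.3 on β-catenin day 3 for the next brightest. Mast cell markers were high on the same arrays, with sums of 179712 and 78823 against 3897 on β-catenin day 3, and their part in this result was not tested. Rab27a, its close paralogue and the gene mutated in Griscelli syndrome with immune deficiency, took another course by its brightest probe set. Its brightest probe set gave 254.6, 147.9, 260.1 and 710.9 in the same order of arrays, so it was highest on eGFP day 3 and 2.79-fold lower with β-catenin at day 3. A second Rab27a probe set went the other way at day 3, with 92.8 on β-catenin and 62.5 on eGFP.

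Rab37, a Rab of secretory granules in mast cells and of other secretory vesicles, gave 119.9 on β-catenin day 3, 419.4 and 431.1 at DKmix day 50 and day 300, and 227.8 on eGFP day 3. Both DKmix values were above both day 3 values, 3.50-fold and 3.60-fold above β-catenin day 3. Its second probe set gave 105.8, 189.7, 611.7 and 95.1, again with the DKmix arrays on top. Rab3a, best known for synaptic vesicle release, depended on the probe set. The brightest, a probe set of the cross-hybridising _x_at class, gave 32.7, 252.1, 282.1 and 148.5, at least 5.22-fold and 5.84-fold higher on the DKmix arrays than at β-catenin day 3. The other Rab3a probe set gave 85.3, 48.5, 54.9 and 56.6, lower on the DKmix arrays than at β-catenin day 3, so no direction is given for this gene. Rab3d, a Rab of zymogen and mast cell granules, had 128.6, 146.1, 241.0 and 163.3 by its brightest probe set, within 2-fold in every comparison. Another Rab3d probe set gave 59.2, 159.0, 233.2 and 273.7, so that DKmix day 50 and day 300 were 2.69-fold and 3.94-fold above β-catenin day 3, which was 4.62-fold below eGFP day 3. Rab44, a large atypical Rab that takes part in mast cell degranulation, had 818.7, 1106, 889.6 and 851.7 and did not reach 2-fold anywhere. Rab8a, which carries post-Golgi cargo to the surface, was brightest on β-catenin day 3 (509.0), with 308.2 and 354.2 on the DKmix arrays and 277.8 on eGFP day 3, all within 2-fold. A dim second Rab8a probe set was brightest on DKmix day 50, at 96.0.

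The Rabs of lysosome-related organelles, Rab32 and Rab38, deliver cargo to melanosomes and related granules. Rab38 gave 1044 on β-catenin day 3, 4182 on DKmix day 50, 512.9 on DKmix day 300 and 709.1 on eGFP day 3. DKmix day 50 stood above the other arrays, 4.01-fold over β-catenin day 3, and DKmix day 300 was 2.04-fold below β-catenin day 3 and 8.15-fold below DKmix day 50. A second Rab38 probe set gave 739.2, 1018, 485.6 and 271.2, with DKmix day 50 again on top. Its DKmix ratios over β-catenin day 3 were within 2-fold, while β-catenin day 3 was 2.73-fold above eGFP day 3. Rab32 had 151.6, 290.8, 140.4 and 150.9, and it too was higher on DKmix day 50 than on the other arrays, with DKmix day 300 at 2.07-fold below it. DKmix day 50 is also the array with the highest 3′ to 5′ ratio of Gapdh.

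Among the Rabs of endosomes, recycling and Golgi traffic, Rab5a set 1 array apart. Rab5a, which governs fusion of early endosomes, gave 60.3 on β-catenin day 3, 378.4 on DKmix day 50, 273.3 on DKmix day 300 and 339.8 on eGFP day 3. The low value was that of β-catenin day 3, which lay 5.64-fold below eGFP day 3, and DKmix day 50 and day 300 were 6.28-fold and 4.53-fold above it. The gene had 1 probe set, so no second reading exists. Of its isoforms, Rab5b was also lowest on β-catenin day 3 by its brightest probe set only, and Rab5c did not share this course. Rab5b was read in opposite directions by 2 probe sets, with 60.1, 110.7, 129.6 and 89.5 by one and 154.3, 98.0, 39.0 and 110.3 by the other. Rab5c had 252.8, 250.7, 232.4 and 133.7, within 2-fold throughout.

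Rab10 and Rab11a, which act in recycling of membrane to the surface, were highest on DKmix day 300 by their brightest probe sets. Rab10 gave 811.1 on β-catenin day 3, 1561 and 2124 at DKmix day 50 and day 300, and 847.7 on eGFP day 3. The DKmix arrays lay above both day 3 arrays, by 2.62-fold over β-catenin day 3 at day 300, and the 2 other Rab10 probe sets had the same direction at day 300. Rab11a gave 1173, 2055, 2453.5 and 1410.3, with both DKmix values above both day 3 values and 2.09-fold above β-catenin day 3 at day 300. The second Rab11a probe set gave 154.4, 269.9, 241.6 and 90.9, highest on DKmix day 50. By that probe set DKmix day 300 was 1.565-fold above β-catenin day 3. Rab7, of late endosomes and lysosomes, Rab11b and Rab14, of Golgi and endosome traffic, stayed within 2-fold in each comparison of pairs by their brightest probe sets. In Rab7 the 4 arrays gave 1483, 1693, 2256 and 1747, and its second probe set was within 2-fold as well. A second Rab11b probe set gave 157.2, 244.6, 45.5 and 211.0, with DKmix day 300 at least 3.26-fold below β-catenin day 3. Of the other Rab14 probe sets, one was 2.01-fold lower at β-catenin day 3 than at eGFP day 3 and another 2.04-fold higher at DKmix day 50 than at β-catenin day 3.

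Stx3 was the SNARE with the largest ratios. Stx3, a plasma membrane and granule syntaxin used in mast cell and epithelial exocytosis, gave 383.3 on β-catenin day 3, 2579 on DKmix day 50, 258.7 on DKmix day 300 and 82.1 on eGFP day 3. It was 6.73-fold higher at day 50 than on β-catenin day 3, then 9.97-fold lower at day 300 than at day 50. The 3 other Stx3 probe sets were also highest on DKmix day 50, between 142.3 and 197.6, and were each at 24.8 or less on DKmix day 300. Stx3 was therefore high on the DKmix array of day 50 and not on that of day 300. Vamp3, a vesicle SNARE of recycling endosomes, had a like course by its brightest probe set, with 1308, 3195, 1271 and 1691. Of the 4 other Vamp3 probe sets, 3 were also lower at DKmix day 300 than at day 50. The probe set without an x, s or a suffix gave 451.8, 568.0, 702.0 and 371.8, which put DKmix day 300 above day 50. Another gave 314.5, 228.4, 187.0 and 140.8, which put DKmix day 50 below β-catenin day 3.

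Stx11 and Vamp7 were higher on both DKmix arrays than on either day 3 array by their brightest probe sets. Stx11, a syntaxin of cytotoxic granule release whose loss causes familial haemophagocytic lymphohistiocytosis, gave 75 on β-catenin day 3, 242.4 and 236.8 at DKmix day 50 and day 300, and 180.4 on eGFP day 3. The DKmix values were 3.23-fold and 3.16-fold above β-catenin day 3, and β-catenin day 3 was 2.41-fold below eGFP day 3. The second Stx11 probe set gave 62.4, 93.9, 143.2 and 101.4, which puts DKmix day 50 below eGFP day 3. Vamp7, a vesicle SNARE of late endosomes and secretory lysosomes, gave 134.8, 355.9, 259.3 and 116.8, or 2.64-fold higher at day 50. The other Vamp7 probe set was near or below the floor and had 63.9 on β-catenin day 3 as its highest value. Vamp2, the vesicle SNARE of neuronal and some granule exocytosis, gave 163.2 on DKmix day 50, at least 3.38-fold higher than on β-catenin day 3, and 90.8 at DKmix day 300, against values below the floor on both day 3 arrays (36.7 with β-catenin and 32.3 with eGFP). The other Vamp2 probe set gave 5.1, 35.3, 303.9 and 88.0, with DKmix day 300 at least 6.29-fold above DKmix day 50, so the readings disagree on the order of the DKmix arrays.

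Vamp8 was the SNARE that was lower on both DKmix arrays. This R-SNARE, the main one of regulated release in mast cells, platelets and pancreas, gave 1557.5 on β-catenin day 3, 626.4 on DKmix day 50, 647.0 on DKmix day 300 and 2448 on eGFP day 3. The DKmix values were 2.49-fold and 2.41-fold below β-catenin day 3, and the 2 groups of arrays did not overlap. It has 1 probe set. The summed neutrophil and monocyte markers were also lower on both DKmix arrays, and their part in the Vamp8 result was not tested.

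Plasma membrane SNAREs of the same fusion step did not follow Vamp8. Snap23, the partner of syntaxin-4 in mast cell granule fusion, gave 718.4 on β-catenin day 3, 427.8 and 574.1 on the DKmix arrays and 208.2 on eGFP day 3. Its value with β-catenin at day 3 was 3.45-fold above eGFP, and the DKmix arrays were within 2-fold of β-catenin day 3. The next brightest Snap23 probe set showed little at day 3, with 234.5 on β-catenin day 3 and 198.7 on eGFP day 3, and a dimmer one was 3.81-fold higher at DKmix day 50 than at β-catenin day 3. Stx4a, the syntaxin of the plasma membrane, was within 2-fold throughout, with 870.4, 819.2, 1029.9 and 699.8. Stx6, of the trans-Golgi network, was 2.05-fold higher at DKmix day 300 than on β-catenin day 3 (406.5 against 198.4), and a second probe set gave 280.8 against 282.2. Stx7, Stx8 and Snap29, of endosomal fusion, were within 2-fold in each pairwise comparison by their brightest probe sets. Another Snap29 probe set gave 17.6, 270.6, 134.3 and 164.4, at least 5.60-fold and 2.78-fold higher on DKmix day 50 and day 300 than at β-catenin day 3.

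Of the docking and priming genes, Unc13d, Stxbp2 and Stxbp3 were lower at DKmix day 50 than on β-catenin day 3 and within 2-fold of it at DKmix day 300. Unc13d, which encodes Munc13-4, the priming factor of mast cell and lymphocyte granules, gave 238.3 on β-catenin day 3, 104.4 on DKmix day 50, 304.1 on DKmix day 300 and 150.1 on eGFP day 3. It was 2.28-fold lower at day 50 than on β-catenin day 3 and 2.91-fold higher at day 300 than at day 50. Stxbp2, which encodes Munc18-2, the SM protein that chaperones syntaxin-11 and syntaxin-3, gave 651.1, 271.7, 785.5 and 389.9, or 2.40-fold lower at day 50. The 2 other Stxbp2 probe sets had the same low value at DKmix day 50, 182.5 and 338.9, against 601.3 and 695.4 on β-catenin day 3. Stxbp3, the SM protein of syntaxin-4, gave 105.6, 9.9, 130.4 and 62.8, at least 2.19-fold lower at day 50 and at least 2.70-fold higher at day 300 than at day 50. By their brightest probe sets all 3 genes had their lowest value on DKmix day 50 and their highest on DKmix day 300, with eGFP day 3 below β-catenin day 3. The 2 other Stxbp2 probe sets gave 216.6 and 283.0 on eGFP day 3. By these, β-catenin day 3 was 2.78-fold and 2.46-fold above eGFP day 3, and for the latter eGFP day 3 was the lowest array. DKmix day 50 and eGFP day 3 are the 2 arrays with high 3′ to 5′ ratios of Gapdh. For β-actin the ratio was 1.32 at β-catenin day 3, 3.41 at DKmix day 50, 1.2 at DKmix day 300 and 1.83 at eGFP day 3.

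The synaptotagmins and Cplx2 were dim, each above the floor on some arrays only. Syt9, a synaptotagmin of dense-core vesicles, gave 196.4 and 143.2 at DKmix day 50 and day 300, against values below the floor on both day 3 arrays (38.3 with β-catenin and 6.1 with eGFP). It was at least 4.07-fold and 2.96-fold higher on the DKmix arrays than at β-catenin day 3. Syt11, a synaptotagmin that does not bind calcium, gave 164.0 on DKmix day 300 and lay below the floor on the other arrays by its brightest probe set, yet another of its probe sets gave 108.1 on DKmix day 300 and 107.2 on β-catenin day 3. Syt2, a sensor for mast cell lysosomal exocytosis in rat cells, was above the floor on DKmix day 50 (82.2) and eGFP day 3 (49.9). Cplx2, a complexin that promotes mast cell degranulation, lay below the floor on both DKmix arrays (7.5 at day 50 and 22.7 at day 300). It gave 95.1 on β-catenin day 3 and 96.8 on eGFP day 3. The DKmix arrays were thus at least 1.97-fold below β-catenin day 3, a bound that does not settle whether 2-fold was reached. Sytl4, a Rab27 effector called granuphilin, was above the floor on eGFP day 3 only (53.8). Myo5a, the myosin motor that Rab27a recruits through melanophilin in melanocytes, gave 112.8, 86.8, 41.9 and 108.1, and DKmix day 300 was at least 2.34-fold below β-catenin day 3. A second Myo5a probe set gave 48.4 on DKmix day 300 and 152.4 on β-catenin day 3.

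Of the granule biogenesis genes, Lyst differed between the DKmix and the day 3 arrays by more than 2-fold. Lyst, which limits the size of lysosome-related granules and whose loss gives the giant granules of Chediak-Higashi syndrome and the beige mouse, gave 227.2 on β-catenin day 3, 75.1 on DKmix day 50, 60.0 on DKmix day 300 and 333.8 on eGFP day 3. The DKmix values were 3.03-fold and 3.79-fold below β-catenin day 3 and did not overlap the day 3 values. The 2 other Lyst probe sets were dim. One was below the floor on both DKmix arrays, against 51.3 on β-catenin day 3 and 80.7 on eGFP day 3, and the other was above the floor on β-catenin day 3 only (107.1). With probe sets averaged the log2 ratio of Lyst over β-catenin day 3 was -1.16 or lower at both DKmix times. With the floor at 134.6 it was -0.76 or lower at both. In both settings the DKmix values lay at the floor, so these ratios are lower bounds on the size of the difference. Hps4, a subunit of the BLOC-3 complex that activates Rab32 and Rab38, gave 470.3, 946.8, 460.7 and 467.1, so it was 2.01-fold higher on DKmix day 50 than on β-catenin day 3 and 2.06-fold lower on DKmix day 300 than on DKmix day 50. Its partner Hps1 gave 456.4, 554.9, 338.8 and 384.8 by an _x_at probe set, within 2-fold. Another Hps1 probe set gave 154.1, 190.7, 359.0 and 180.6, or 2.33-fold higher at DKmix day 300 than at β-catenin day 3. Hps3, of BLOC-2, gave 365.6, 354.3, 210.3 and 638.8, with no pair involving β-catenin day 3 past 2-fold. Ap3b1 and Ap3d1, large subunits of the AP-3 coat that sorts proteins to lysosome-related organelles, were within 2-fold in each pairwise comparison by their brightest probe sets. Ap3b1 gave 1235, 1237, 1246 and 1610.1 by that reading. Its second probe set gave 599.4, 325.0, 830.9 and 370.7, with DKmix day 300 at 2.56-fold above DKmix day 50. A dim second Ap3d1 probe set gave 57.5 at β-catenin day 3 and 131.4 at eGFP day 3.

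Taking the DKmix arrays and the day 3 arrays as 2 sets, the lower DKmix value was above the higher day 3 value in 12 of the 44 genes, and the reverse held in 5. These shares are 27.3% and 11.4%, where 15.5% and 16.8% of all genes were apart in the same sense. At 2-fold or more, Rab27b and Syt9 were apart as higher and Vamp8 and Lyst as lower, 2 genes each way, where 2.78% of all genes were apart as higher and 2.68% as lower, 5.46% in either direction. Without the DKmix day 50 array the counts at 2-fold were 5 higher and 3 lower, where 8.38% of all genes were higher and 7.01% lower. Without the eGFP day 3 array they were 6 higher and 2 lower, where 5.25% of all genes were higher and 6.68% lower. The other 10 genes apart as higher were Rab3a, Rab37, Rab44, Rab5b, Rab11a, Rab10, Stx8, Stx11, Vamp2 and Vamp7, at 1.04-fold to 1.92-fold by their brightest probe sets. The 1.88-fold gap of Vamp2 is a lower bound, since both day 3 values lay below the floor. Rab3a, Rab5b, Stx8, Stx11, Vamp2 and Vamp7 each had another probe set that was not apart in this sense. Cplx2 was apart as lower by at least 1.97-fold, a bound set by the floor. Myo5a and Hps3 were apart as lower by 1.25-fold and 1.03-fold. Lyst, Myo5a and Hps3 each had another measured probe set that was not apart as lower.

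At day 3, β-catenin over eGFP, 2 of 41 measured genes were higher and 4 lower, shares of 4.88% and 9.76%, where 10.2% of all genes were higher and 9.41% lower, 19.6% in either direction. By their brightest probe sets the higher genes were Stx3 (4.67-fold) and Snap23 (3.45-fold). The lower ones by that reading were Rab5a (5.64-fold), Rab3a (at least 3.07-fold), Rab27a (2.79-fold) and Stx11 (2.41-fold). The next brightest probe sets of Rab3a and Rab27a went the other way, with log2 ratios of 0.59 and 0.57. Of the 5 genes with another measured probe set, 0 were past 2-fold in the same direction by the next brightest. On the hybridisation control scale the median of all genes moved by 0.36 and the counts were 8 higher and 3 lower, where 21.4% of all genes were higher and 6.88% lower. On the deposited scale the share of higher secretory genes was thus below that of all genes, and the share of lower ones was close to it. Neutrophil markers summed to 13190.1 on β-catenin day 3 and 103009 on eGFP day 3, and their part in these ratios was not tested.

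Between the DKmix arrays, day 300 over day 50, 5 of 42 genes were higher and 5 lower, 11.9% each way, where 15.1% of all genes were higher and 15.8% lower, 30.9% in either direction. The lower genes were Stx3 (9.97-fold), Rab38 (8.15-fold), Vamp3 (2.51-fold), Rab32 (2.07-fold) and Hps4 (2.06-fold). Hps4 and its substrates Rab32 and Rab38 thus had the same direction, while the probe sets of Hps1 disagreed, with log2 ratios of -0.71 and 0.91. The higher genes were Syt11 (at least 3.40-fold), Unc13d (2.91-fold), Stxbp2 (2.89-fold), Stxbp3 (at least 2.70-fold) and Stx6 (2.15-fold). Mast cell markers summed to 78823 on DKmix day 300 and 179712 on DKmix day 50.

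**Figure D3:**
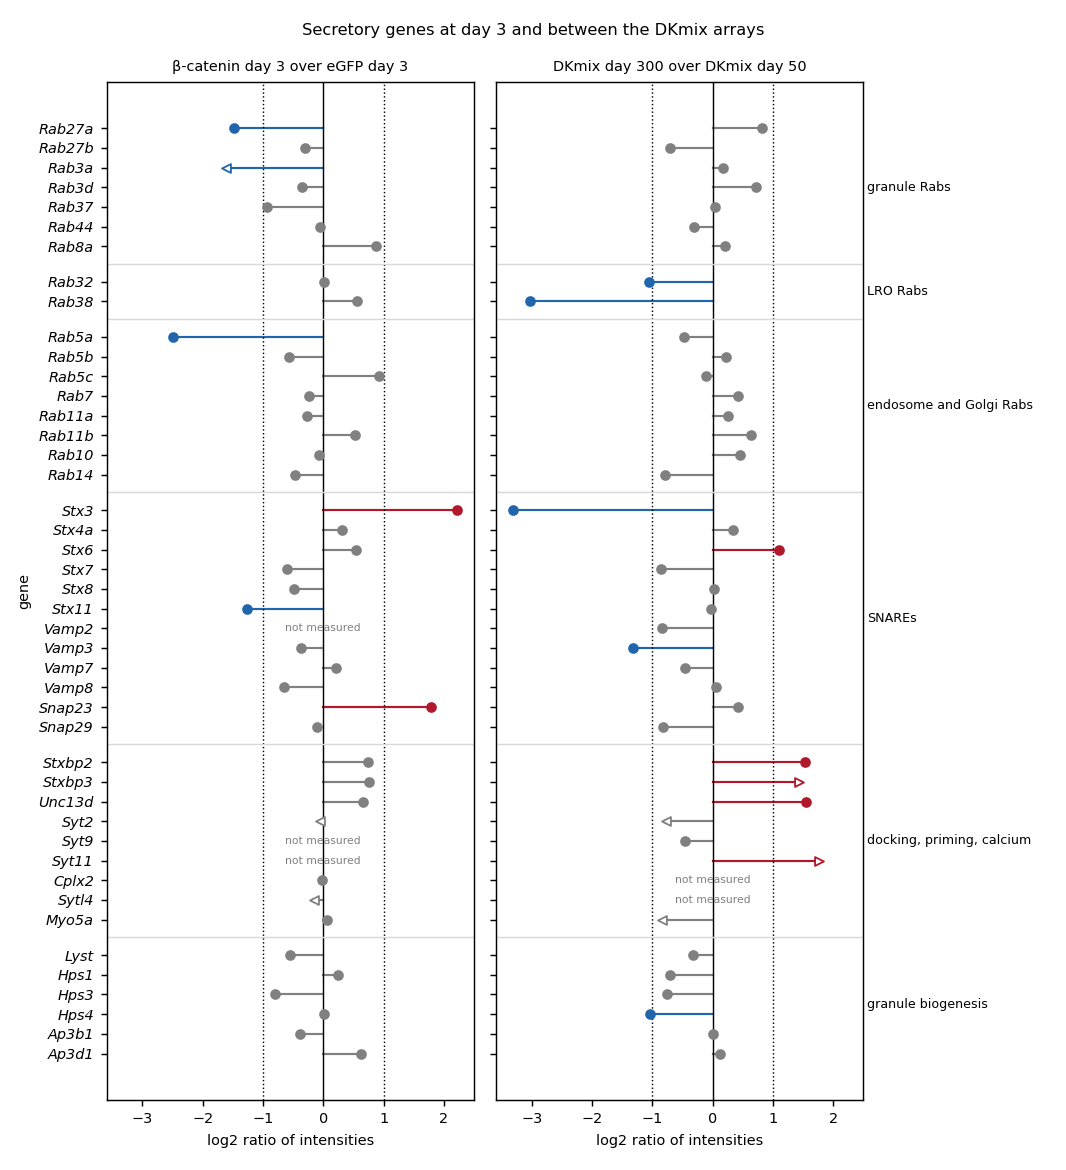
Log2 ratio of intensities, β-catenin day 3 over eGFP day 3 (left) and DKmix day 300 over DKmix day 50 (right), for each of the 44 genes, drawn as circles for measured ratios and open triangles for lower bounds on the size. Dotted lines mark 2-fold. Rab5a at -2.49 and Stx3 at 2.22 lie farthest out at day 3, and Stx3 at -3.32 and Rab38 at -3.03 between the DKmix arrays.

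Probe sets of the same gene were the only repeat reading on these arrays. Of the genes past 2-fold at DKmix day 50 over β-catenin day 3, 10 had another measured probe set, and its direction was the same for 8, with 4 past 2-fold. At DKmix day 300 over β-catenin day 3 it was the same for 9 of 12, at DKmix day 300 over day 50 for 6 of 6, and at β-catenin day 3 over eGFP for 3 of 5. Over all genes past 2-fold, a second probe set had the same direction for 71.7%, 81.3%, 63.6% and 68.4% in the same order of comparisons. The SD of the log2 ratio of a single probe set was 0.80, 0.63, 0.92 and 0.64 in that order. It is the SD of the difference between the 2 brightest probe sets of a gene, divided by the square root of 2. Only genes with both probe sets above the floor on both arrays were used, so dim readings are left out. Rab3a, Vamp7 and Rab5b were the genes whose next probe set opposed the first against β-catenin day 3, together with Stx6, whose second value was level with it at -0.01.

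**Figure D4:**
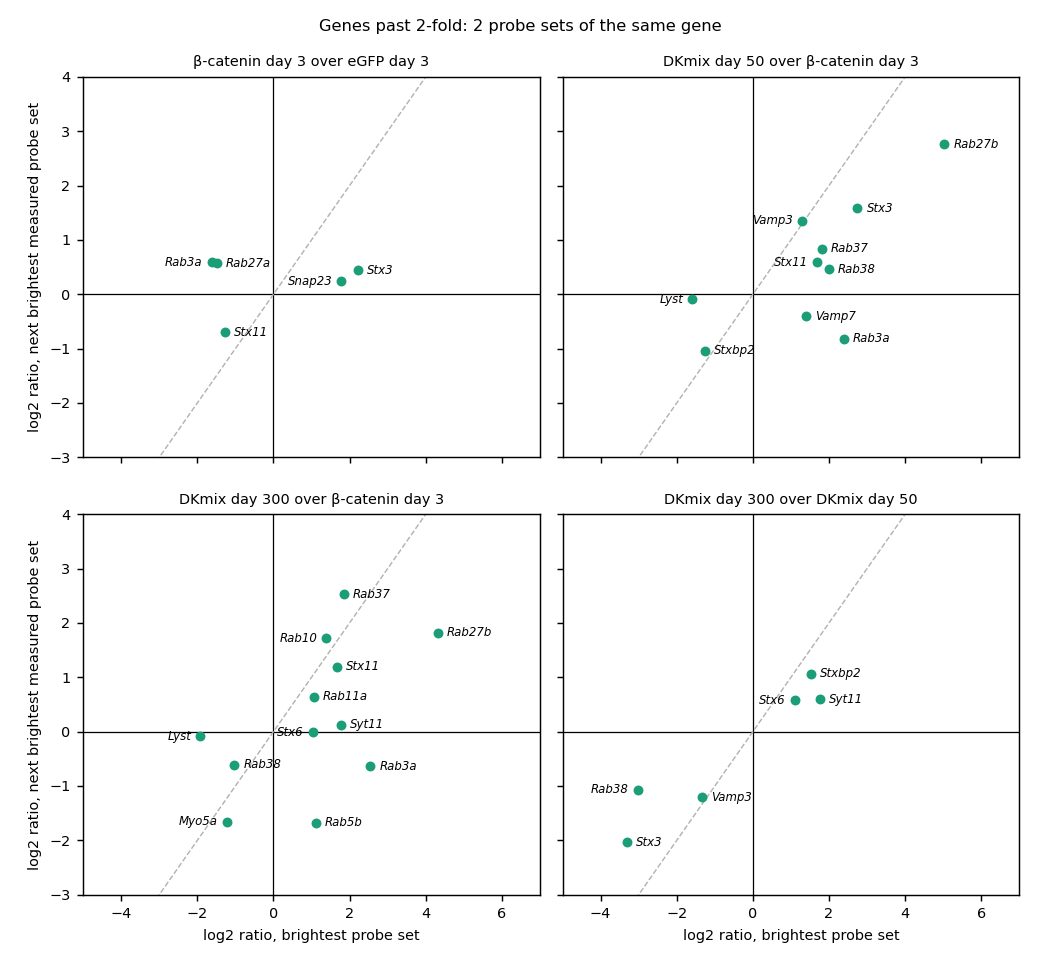
Log2 ratio by the brightest probe set (horizontal) and by the next brightest measured probe set (vertical) for each of the genes past 2-fold, in the 4 pairwise comparisons. Each point is 1 gene and the dashed line marks equal ratios. Rab27b lies at 5.04 and 2.76 at DKmix day 50, and Rab3a at 2.38 and -0.82.

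Other genes of the pathway were taken from 6 further lists of Rabs, SNAREs and fusion factors, exocyst subunits, synaptotagmins and Rab effectors, HPS, BLOC and AP-3 subunits, and Rab cycle regulators. Of 181 names 167 were on the array. At DKmix day 50 over β-catenin day 3, 38 of 138 measured genes were higher and 7 lower, and at DKmix day 300, 23 of 139 were higher and 13 lower. These shares, 27.5% and 16.5% higher, lay above the 16.0% and 14.0% of all genes by a wider margin at day 50 than at day 300. The shares lower, 5.07% and 9.35%, lay below the 15.7% and 14.4% of all genes. At β-catenin day 3 over eGFP, 15 of 138 were higher (10.9%) and 10 lower (7.25%), near the 10.2% and 9.41% of all genes. At DKmix day 300 over day 50, 17 of 145 were higher (11.7%) and 25 lower (17.2%), near the 15.1% and 15.8% of all genes.

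Among the Rab27 effectors, Sytl2, a synaptotagmin-like protein that links Rab27 to the plasma membrane, gave 4.0 on β-catenin day 3, 1045 on DKmix day 50, 652.9 on DKmix day 300 and 2.3 on eGFP day 3. It was at least 21.6-fold and 13.5-fold higher on the DKmix arrays than at β-catenin day 3, the same arrays on which Rab27b was high. Sytl1 gave 10.8, 34.6, 247.7 and 248.9, so DKmix day 300 and eGFP day 3 were the bright arrays. Unc13b, a Munc13 relative, gave 75.1, 424.5, 69.4 and 97.2, high on DKmix day 50 where Unc13d was low. Among the other Rabs, Rab19 gave 69.5, 729.4, 187.1 and 7.6, and Rab8b, a relative of Rab8a, gave 492.9, 2464, 751.5 and 685.2, both highest on DKmix day 50. Rab13, of cell junction traffic, was highest on DKmix day 300, with 13.7, 123.9, 547.0 and 168.6. Of the further SNAREs and fusion factors, Vps45, an SM protein of endosomes, gave 57.7, 136.1, 378.6 and 19.9, and Vamp5 gave 611.6, 394.7, 78.2 and 257.0. Ap3m2, a medium subunit of AP-3, gave 82.3, 215.7, 280.6 and 37.6, above both day 3 arrays on both DKmix arrays.

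**Figure D5:**
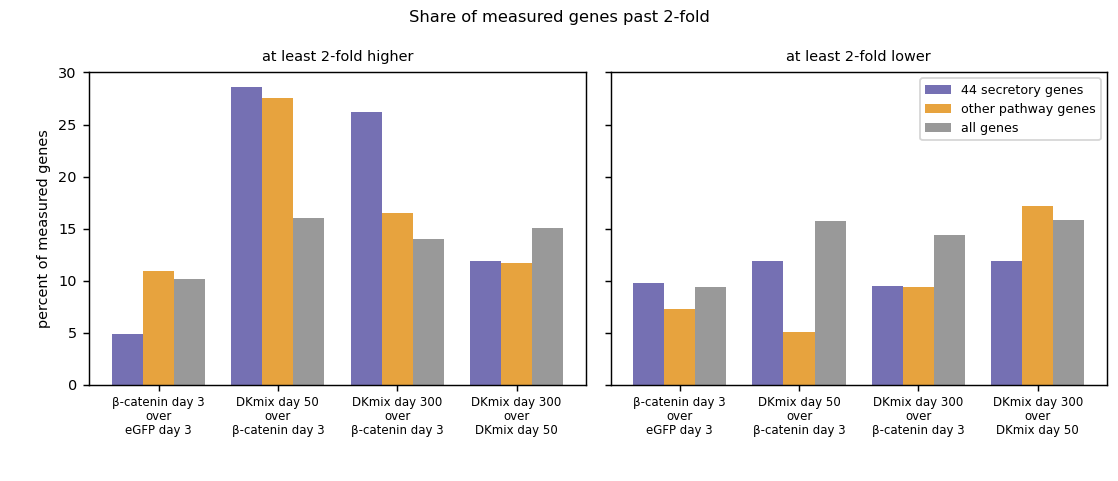
Percent of measured genes at least 2-fold higher (left) and at least 2-fold lower (right) in the 4 pairwise comparisons, for the 44 secretory genes, the other pathway genes and all genes. The 44 genes reach 28.6% and 26.2% higher on the DKmix arrays against β-catenin day 3, where all genes reach 16.0% and 14.0%.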

How the data were processed

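RNA of 4 samples was measured on 1 Affymetrix array each, 1 array per group. The deposited values are linear signal intensities by MAS5, per the submitters' processing notes, with no version stated in the sources used here. The 45101 probe sets of each array had a mean of 150 after trimming 2% at either end, so the deposited scale was kept. Gene symbols came from GEO's platform table: 34945 probe sets had 1 symbol, 932 had several and were not named, and 64 control probe sets were left out. Each of 18193 genes was read by its brightest probe set.

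Intensities were floored at 48.3, their pooled median, log2 ratios were taken, and 2-fold was the threshold. The code for the calls was run on simulated data with planted changes. That run checks the code only and does not measure how reliable the calls on these arrays are. No test across genes was run, since no group had replicates; the number of arrays limits precision. The members, lists and alternatives (floor, normalization, choice of probe set, arrays left out) were chosen with earlier results of these data known. Any member may be named; of the other pathway lists, up to 4 genes per comparison past 2-fold, with the brighter intensity at least 4 times the floor. Promoters came from RefSeq (GRCm38.p6). Calculations used Python 3.11.15, numpy 2.4.6, pandas 2.3.3 and scipy 1.17.1.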

Additional observations from a re-analysis of the deposited data

Results flagged for a closer look

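Rab38 was past 2-fold in opposite directions at the 2 DKmix times against β-catenin day 3, with a log2 ratio of 2.002 at DKmix day 50 and -1.02 at DKmix day 300. The difference was not tested, since each time had 1 array. Both values come from an _x_at probe set, and the second Rab38 probe set gave 0.46 and -0.61.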

How the results depend on the processing

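No paired analysis was possible because each group held 1 array and no comparison had a test. On the hybridisation control scale, 8 genes were higher at β-catenin day 3 over eGFP, where 21.4% of all genes were. At DKmix day 50 over β-catenin day 3, 7 were higher and 13 lower, where 4.92% and 39.3% of all genes were. At DKmix day 300 over β-catenin day 3, 4 were higher and 18 lower, where 4.17% and 45.1% of all genes were. Between both DKmix and both day 3 arrays, 1 was apart as higher and 4 as lower, where 0.894% and 9.8% of all genes were. With the floor at percentile 75 (134.6), which leaves fewer genes measured, 2 were lower at day 3, where 7.08% of all genes were. At DKmix day 50 2 were lower, where 15.8% of all genes were. At DKmix day 300 7 were higher and 2 lower, where 14.6% and 12.7% of all genes were. At DKmix day 300 over day 50, 3 were higher, where 15.9% of all genes were. With that floor 1 was apart each way, where 3.22% of all genes were apart as higher and 2.82% as lower. With probe sets of a gene averaged, 4 were higher and 2 lower at day 3, where 11.3% and 9.02% of all genes were. In that setting 1 was apart as lower, where 2.58% of all genes were. Without the DKmix day 50 array, 5 genes were apart as higher at 2-fold, where 8.38% of all genes were. At any size 22 were apart as higher and 11 as lower without that array. Without the eGFP day 3 array 6 genes were apart as higher at 2-fold, where 5.25% of all genes were, and 8 as lower at any size. The counts at any size were added after seeing the data and have no share of all genes beside them here. Fewer arrays make it easier for the sets to be apart, so no result about these genes is drawn from them. The other 46 counts under an alternative were within 1.5 times.

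Among single genes, 8 ratios past 2-fold changed sign. Rab3a became 0.59 at β-catenin day 3 over eGFP, -0.82 at DKmix day 50 and -0.64 at DKmix day 300 over β-catenin day 3 with probe sets that carry no x, s or a suffix, and Vamp3 became 0.31 at DKmix day 300 over day 50. Rab5b at DKmix day 300 over β-catenin day 3 became -1.66 with quantile normalization, which changed the brightest probe set, and -0.44 with probe sets averaged. Vamp7 at DKmix day 50 became -0.94 with that average, and Stx6 at DKmix day 300 became -0.01 on the hybridisation control scale. Past 2-fold in the same direction under each of the 6 alternatives were Rab27b, Rab5a, Stx3, Vamp8 and Stxbp2 at DKmix day 50, Rab27b, Rab5a and Vamp8 at DKmix day 300, both over β-catenin day 3, Rab5a at day 3, and Rab32, Rab38, Stx3, Hps4, Stxbp2 and Unc13d at DKmix day 300 over day 50. Rab5a, Vamp8, Rab32, Hps4 and Unc13d have 1 probe set each, so the alternatives on the choice of probe set could not alter them.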

Other observations

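Genes that load and recycle Rab proteins were past 2-fold about as often as all genes on the DKmix arrays. Of 24 measured Rab cycle regulators, 3 were higher and 3 lower at DKmix day 50 over β-catenin day 3, and 4 of 25 were higher and 4 lower at DKmix day 300. Of all genes 16.0% were higher and 15.7% lower at day 50, and 14.0% higher and 14.4% lower at day 300. Rabggta and Rabggtb, the subunits of the enzyme that attaches the lipid anchor to Rabs, had log2 ratios of -1.48 and -1.56 at DKmix day 50. Rabggtb gave 2128.5 on DKmix day 300 against 384.4 on DKmix day 50, and Rabggta was 2.28-fold below β-catenin day 3 at DKmix day 300. Dennd1b, an exchange factor for Rab35, was above β-catenin day 3 by 4.72-fold at DKmix day 50 and 2.92-fold at DKmix day 300. Rabgef1, the Rab5 exchange factor Rabex-5, which restrains mast cell activation in mice, gave 130.4 on β-catenin day 3, 152.8 on DKmix day 50, 573.8 on DKmix day 300 and 136.5 on eGFP day 3, so DKmix day 300 stood above the other arrays.

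The exocyst, which tethers vesicles at the plasma membrane, had 2 of 9 subunits higher and 0 lower at DKmix day 50 over β-catenin day 3, where 16.0% of all genes were higher and 15.7% lower. Exoc5 gave 212.6, 528.2, 193.2 and 362.4 on β-catenin day 3, DKmix day 50, DKmix day 300 and eGFP day 3, highest on DKmix day 50. At DKmix day 300 Exoc3 was 2.36-fold higher than on β-catenin day 3 and Exoc8 2.08-fold lower.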
